A study of Mus musculus with 12 samples.

Results

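The chloride and sodium transport genes of the colonocyte, the surface absorptive cell of the large intestine, were described over all 12 arrays of the study: Slc26a3, Slc26a2, Slc9a2, Slc9a3, Scnn1a, Scnn1b, Scnn1g, Cftr and Slc12a2. They were listed by symbol for their role in salt transport, with earlier results of these data known, and matched to probes through the RefSeq accession of each probe. The 9 genes were carried by 11 probes, of 41174 non-control probes in all and of 18539 genes with a symbol. Scnn1a and Cftr had 2 probes each and the other 7 genes had 1. All 9 passed the filter on dim probes. Slc9a2 on the AOM/DSS arrays was the one member not well above background on more than 1 array of a group.

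The mice were female BALB/c, 5 to 7 weeks old, and tissue of the distal colon and rectum was taken on day 100. The AOM/DSS group received the colon carcinogen azoxymethane (AOM) once, at 12.5 mg/kg on day 1, and then 3 cycles of the colitis-inducing polymer dextran sulfate sodium (DSS) from day 5, each of 5 days of DSS within 21 days. The AOM group received 10 mg/kg weekly for 6 injections without DSS, the DSS group received the same DSS cycles without AOM, and the control group received neither. Each group had 3 one-colour Agilent arrays. The AOM/DSS samples were neoplasms clipped with scissors and stored in an RNA preservative, whereas the AOM, DSS and control epithelium was scraped from the bowel into Trizol, so neoplasm, regimen and collection cannot be told apart in any comparison with the AOM/DSS group. The labels do not say whether the 3 replicates of a group were separate animals, so the p-values speak to the spread among the arrays, which could be technical.

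The surface colonocyte takes up sodium chloride by pairing sodium-proton exchange with chloride-bicarbonate exchange at its apical membrane. In the distal colon, sodium is also taken up through the epithelial sodium channel, which the mineralocorticoid aldosterone raises. Chloride secretion runs the other way in crypt cells, where a basolateral cotransporter loads chloride and the apical channel Cftr releases it. In bulk tissue, fewer cells of a type and less RNA per cell cannot be told apart, and this touches every difference given here.

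Values are log2 processed signals relative to the 75th percentile of their own array, called scaled log2 signals here. They compare arrays for 1 probe and do not compare one gene with another. The AOM/DSS arrays were brighter: their 75th percentile lay at 1115 to 1185 intensity units, against 393 to 694 for the remaining groups. Probes well above background made up 62.6 to 66.2% in AOM/DSS, against 52.0 to 59.3% elsewhere. No probe was saturated on any array. Over all genes tested, DSS replicate 1 correlated more with control replicates 3 and 1 (Pearson r 0.970 and 0.952) than with DSS replicates 2 and 3 (0.937 and 0.947). AOM replicate 1 correlated more with DSS replicate 2 (0.978) than with AOM replicates 2 and 3 (0.961 and 0.953). Slide 1 held AOM/DSS replicates 1 and 2 with AOM replicates 1 and 2, slide 2 held AOM replicate 3 with the 3 DSS arrays, and slide 3 held AOM/DSS replicate 3 with the 3 controls, so AOM and DSS shared no slide with the controls. Transcripts of exocrine pancreas were present on some arrays of an epithelial tissue: their summed signal was 31.6 to 38.3 times the 75th percentile on AOM/DSS arrays, 16.3 to 27.8 on AOM arrays, 20.4 to 129 on DSS arrays and 78.0 to 856 on control arrays, highest in control replicate 3 and, among the DSS arrays, in replicate 1.

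Promoter windows of 3 members are shown because these genes stand for 3 kinds of transporter: Slc26a3, the chloride exchanger that fell the furthest in AOM/DSS neoplasms, Scnn1b, a sodium channel subunit, and Cftr, the secretory chloride channel, the last 2 lower than control in both AOM/DSS and AOM. The sequences are from RefSeq (build GRCm38.p6) and run 5′ to 3′ on the gene's strand over the 250 bases before a start in the RefSeq promoter table. The Slc26a3 and Slc9a3 windows lie inside the longer span that RefSeq gives those genes and the Scnn1g window runs into its gene's span, so other starts exist and positions count from the table's start alone. The windows are chr12:31437969-31438218 (+) for Slc26a3, chr7:121864788-121865037 (+) for Scnn1b and chr6:18170437-18170686 (+) for Cftr. Capitals mark TATAAA, the TATA box letters.
Slc26a3: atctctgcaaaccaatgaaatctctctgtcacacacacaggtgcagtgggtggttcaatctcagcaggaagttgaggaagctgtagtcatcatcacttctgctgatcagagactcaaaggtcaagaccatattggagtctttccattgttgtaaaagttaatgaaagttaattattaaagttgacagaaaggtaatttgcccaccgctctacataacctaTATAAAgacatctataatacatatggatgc
Scnn1b: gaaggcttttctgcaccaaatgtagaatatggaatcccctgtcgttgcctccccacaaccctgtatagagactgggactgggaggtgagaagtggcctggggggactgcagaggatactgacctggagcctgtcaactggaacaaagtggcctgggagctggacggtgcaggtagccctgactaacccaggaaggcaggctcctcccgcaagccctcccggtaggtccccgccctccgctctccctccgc
Cftr: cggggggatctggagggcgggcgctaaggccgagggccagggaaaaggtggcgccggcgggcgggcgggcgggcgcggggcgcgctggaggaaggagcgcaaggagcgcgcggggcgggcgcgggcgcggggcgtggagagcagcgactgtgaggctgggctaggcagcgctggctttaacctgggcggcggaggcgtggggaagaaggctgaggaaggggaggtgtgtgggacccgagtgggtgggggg
Of the 9 members, 5 had a promoter entry that was used: these 3, Slc9a3 and Scnn1g. The letters TATAAA, a motif added after the sequences had been read, stood 30 to 25 bases before the table's start of Slc26a3 and in none of the other 4, against 12.4% of the 32851 RefSeq promoter windows of the same length. TTTATG, the core of the intestinal factor CDX2, stood in Scnn1g at 7 to 2 bases before the table's start, inside the longer gene span, against 10.8% of all promoters. AGAACA, a steroid receptor core, and AAAGTCCA, an HNF4 core, were in none of the 5, and 16.1% and 1.01% of all promoters held them. Both strands were searched, and TATAAA shares the letters ATAAA with CATAAA, the reverse complement of TTTATG. Base composition differed widely among the members: G and C made up 38.8% of the Slc26a3 window with 1 CpG, 60.8% for Scnn1b with 7, 65.2% for Scnn1g with 16, 67.6% for Slc9a3 with 19 and 76.4% for Cftr with 30, against medians of 52.4% and 6 over all promoters.

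The absorptive transporters and the secretory channel Cftr were called lower in AOM/DSS neoplasms than in control. The calls of Slc9a3 and Cftr depended on single arrays. The secretory cotransporter Slc12a2 was not called. In the AOM/DSS group against control, 8 of the 9 members fell (limma, adjusted p under 0.05 over 18961 genes) where 17.5% of all genes tested were called lower. The median log2 difference over the 9 members was -2.61, against 0.03 over all genes tested. For 7 members every AOM/DSS value lay below every control value, an ordering found for 26.2% of all genes. With 1 array left out at a time, the count of 8 ran from 6 to 8. The Cftr call was lost without any 1 of 9 arrays, and the Slc9a3 call without any 1 of 5. In the AOM group against control 6 members fell, where 17.6% of genes were called lower, with a member median of -1.59 against -0.01, and 7 members did not overlap where 26.6% of genes did not. That count of 6 depended on single arrays: it was 1 without AOM replicate 2, 2 without AOM replicate 3 or control replicate 1, and 3 without control replicate 2. None of the 9 was called in the DSS group against control, where 0.327% of genes were called, and the member median was -0.84 against -0.02. Slc26a3 and Slc26a2 had every DSS value below every control value, as did 9.52% of genes. Without DSS replicate 1 Slc26a2 was called there (log2 difference -1.18, adjusted p = 0.048), and without control replicate 3 Slc9a3 was (-1.90, adjusted p = 0.012). Over the 4 groups together, 8 of 9 members passed the moderated F test, as did 52.6% of all genes.

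**Figure D1:**
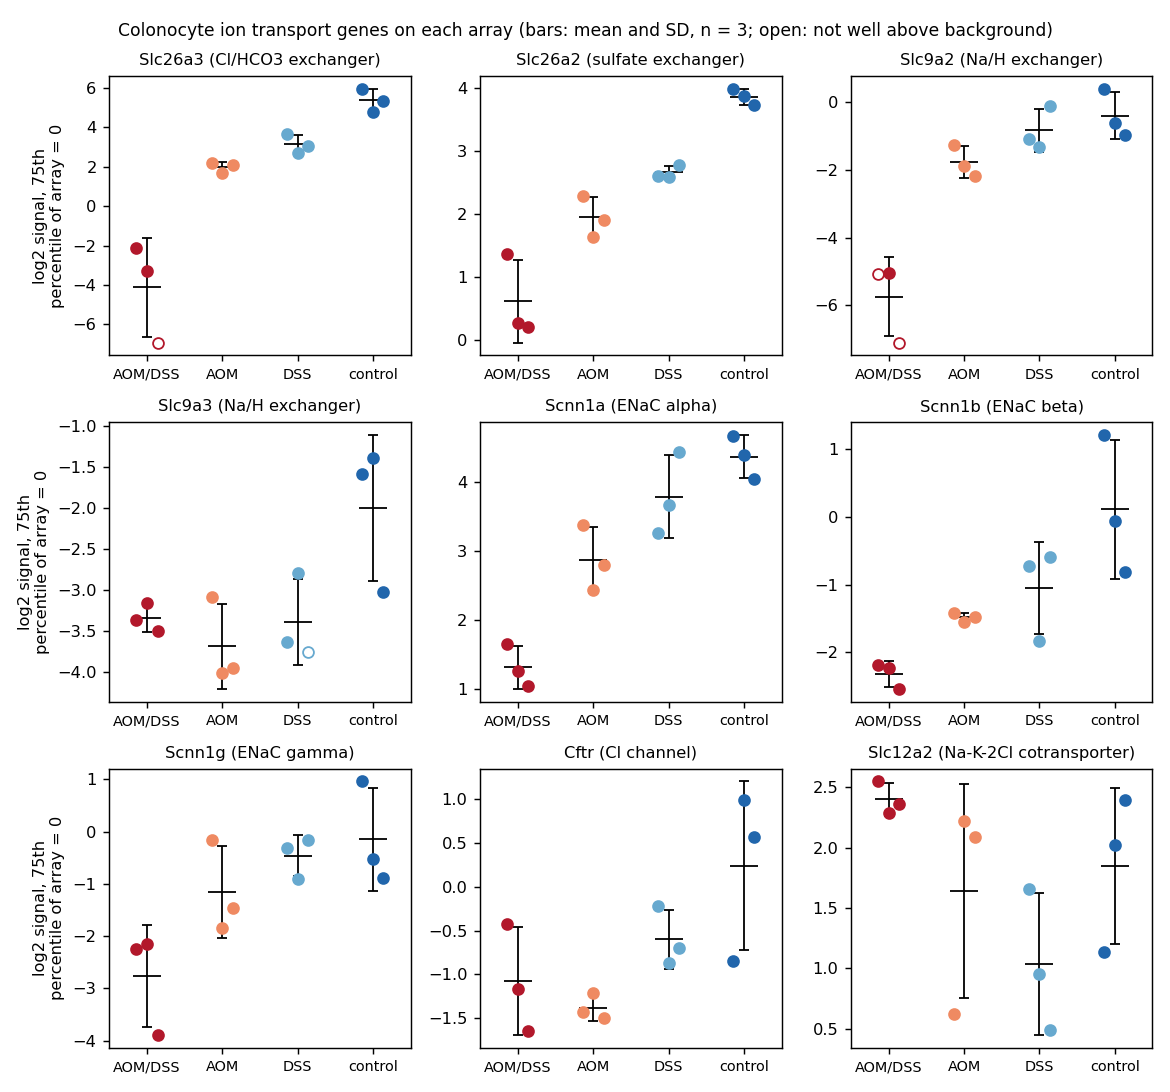
Scaled log2 signal (vertical axis, log2 relative to the array's 75th percentile) of the 9 members, 1 panel each, with 1 point per array in the groups AOM/DSS, AOM, DSS and control with bars for the mean and SD of the 3 arrays; open points were not well above background. The AOM/DSS points of Slc26a3, at -2.15, -3.32 and -6.93, lie below every other point of that gene, and the AOM/DSS points of Slc12a2, at 2.55, 2.28 and 2.36, overlap those of control.

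Slc26a3, the apical chloride-bicarbonate exchanger that is mutated in human congenital chloride diarrhoea, had scaled log2 signals of -2.15, -3.32 and -6.93 on AOM/DSS arrays, against 2.21, 1.70 and 2.07 on AOM arrays, 3.65, 2.70 and 3.05 on DSS arrays and 5.97, 4.80 and 5.35 on control arrays. The groups did not overlap, in the order AOM/DSS, AOM, DSS and control, and AOM/DSS replicate 3 was not well above background. The AOM/DSS log2 difference from control was -9.51 ± 0.94 (limma difference ± SE, n = 3 each, adjusted p = 8.3e-05), number 2 from the lowest among the 18961 genes. With the dim array set to the lowest signal that was well above background on it, the log2 difference was -8.83, or 454-fold lower. The rank used the dim array's value as read and was not redone at that floor. AOM was 10.4-fold below control (log2 difference -3.38 ± 0.94, adjusted p = 0.023), a call lost without AOM replicate 2, AOM replicate 3 or control replicate 1 (adjusted p = 0.055 to 0.078). The DSS log2 difference from control, -2.24, did not pass the test (adjusted p = 0.21) although the 3 DSS values lay below the 3 control values. AOM/DSS also fell below AOM (log2 difference -6.13, adjusted p = 0.0027) and below DSS (-7.26, adjusted p = 0.00064). With the dim array at its floor these differences were -5.45 and -6.59, for which no test was run.

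Slc26a2, a sulfate and anion exchanger abundant in colonic epithelium, gave scaled log2 signals of 1.37, 0.27 and 0.21 on AOM/DSS arrays, against 2.30, 1.65 and 1.91 on AOM arrays, 2.61, 2.60 and 2.79 on DSS arrays and 3.997, 3.87 and 3.74 on control arrays. As with Slc26a3, the 4 groups did not overlap and stood in the same order. The gene was 9.56-fold lower in AOM/DSS than in control (log2 difference -3.26 ± 0.30, adjusted p = 6.5e-05) and 3.79-fold lower in AOM than in control (-1.92 ± 0.30, adjusted p = 0.0052). It also fell in AOM/DSS against AOM (-1.34, adjusted p = 0.011) and against DSS (-2.05, adjusted p = 0.0013). Its DSS log2 difference from control, -1.20, had an adjusted p of 0.11.

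Slc9a2 and Slc9a3 encode apical sodium-proton exchangers (NHE2 and NHE3), the sodium side of neutral salt uptake. Slc9a2 had scaled log2 signals of -5.06, -5.05 and -7.10 on AOM/DSS arrays, against -1.25, -1.88 and -2.18 on AOM arrays, -1.08, -1.32 and -0.10 on DSS arrays and 0.40, -0.62 and -0.95 on control arrays. The AOM/DSS values stood apart from the rest, 2 of the 3 were not well above background, and the DSS values overlapped both the AOM and the control values. The log2 difference of AOM/DSS from control was -5.35 ± 0.58 (adjusted p = 0.00014), and it was -4.61 with the dim arrays at their floors, or 24.4-fold lower. Against AOM it was -3.97 (adjusted p = 0.0023), or -3.23 at the floors, and against DSS -4.90 (adjusted p = 0.00043), or -4.17 at the floors. AOM against control (-1.38, adjusted p = 0.089, or 0.039 without AOM/DSS replicate 3) and DSS against control (-0.44, adjusted p = 0.67) did not pass.

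Slc9a3 had scaled log2 signals of -3.36, -3.16 and -3.50 on AOM/DSS arrays, against -3.09, -4.01 and -3.95 on AOM arrays, -3.63, -2.80 and -3.75 on DSS arrays and -1.59, -1.39 and -3.02 on control arrays. DSS replicate 3 was not well above background. The 3 treated groups overlapped one another, and control replicate 3 lay among the DSS values and close to the AOM/DSS and AOM values. It was lower than control in AOM/DSS (log2 difference -1.34 ± 0.44, adjusted p = 0.037) and in AOM (-1.68 ± 0.44, adjusted p = 0.02). The AOM/DSS call was lost without any 1 of the AOM/DSS arrays or of control replicates 1 and 2 (adjusted p = 0.068 to 0.13), and the AOM call without AOM replicate 2 or 3 or control replicate 1 or 2 (0.058 to 0.071). The DSS log2 difference from control was -1.39 (adjusted p = 0.15). AOM/DSS did not pass against AOM (log2 difference 0.34 ± 0.44, adjusted p = 0.56) or DSS (0.05 ± 0.44, adjusted p = 0.93).

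Scnn1a, Scnn1b and Scnn1g encode the alpha, beta and gamma subunits of the epithelial sodium channel, which carries aldosterone-sensitive sodium uptake. Scnn1a, on its brighter probe, had scaled log2 signals of 1.65, 1.25 and 1.04 on AOM/DSS arrays, against 3.37, 2.43 and 2.80 on AOM arrays, 3.25, 3.67 and 4.43 on DSS arrays and 4.66, 4.39 and 4.04 on control arrays. The AOM/DSS values were below all others, and the DSS values overlapped both AOM and control. It fell 8.27-fold in AOM/DSS against control (log2 difference -3.05 ± 0.35, adjusted p = 0.00017) and 2.82-fold in AOM against control (-1.50 ± 0.35, adjusted p = 0.014), the AOM call being lost without AOM replicate 2 or control replicate 1 (adjusted p = 0.052 and 0.055). It fell in AOM/DSS against AOM (-1.55, adjusted p = 0.01) and against DSS (-2.47, adjusted p = 0.00096). The dimmer Scnn1a probe followed the brighter over the 12 arrays (Pearson r 0.99, a description), with 1 AOM/DSS value not well above background.

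Scnn1b had scaled log2 signals of -2.18, -2.23 and -2.54 on AOM/DSS arrays, against -1.42, -1.55 and -1.48 on AOM arrays, -0.73, -1.84 and -0.59 on DSS arrays and 1.20, -0.06 and -0.82 on control arrays. AOM/DSS lay below every other array, and the control values were spread widely, with replicate 3 inside the DSS range. The beta subunit fell in AOM/DSS against control (log2 difference -2.42 ± 0.47, adjusted p = 0.0031) and in AOM against control (-1.59 ± 0.47, adjusted p = 0.028). The AOM call was lost without any 1 of the AOM arrays or of control replicates 1 and 2 (adjusted p = 0.053 to 0.083). AOM/DSS against AOM (-0.83, adjusted p = 0.18) and against DSS (-1.26, adjusted p = 0.055) did not pass, although the DSS comparison did without DSS replicate 2, control replicate 1 or control replicate 3 (0.02 to 0.032).

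Scnn1g had scaled log2 signals of -2.24, -2.16 and -3.89 on AOM/DSS arrays, against -0.17, -1.84 and -1.47 on AOM arrays, -0.31, -0.90 and -0.17 on DSS arrays and 0.96, -0.52 and -0.89 on control arrays. All 3 AOM/DSS values lay below the others, and AOM, DSS and control overlapped. The gamma subunit fell in AOM/DSS against control (log2 difference -2.61 ± 0.62, adjusted p = 0.0085) and against DSS (-2.30 ± 0.62, adjusted p = 0.017), the second of these lost without AOM/DSS replicate 3 or DSS replicate 3 (adjusted p = 0.058 and 0.064). AOM/DSS against AOM was -1.60 (adjusted p = 0.062, or 0.044 without control replicate 1) and AOM against control was -1.01 (adjusted p = 0.22). The 3 subunits thus fell together in AOM/DSS against control, while in AOM against control the alpha and beta subunits passed the test and gamma did not; the difference between subunits was not tested.

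Cftr, the cyclic-AMP-regulated apical chloride channel, was read by a brighter probe printed at 10 spots per array. Its scaled log2 signals were -0.42, -1.16 and -1.64 on AOM/DSS arrays, against -1.43, -1.21 and -1.50 on AOM arrays, -0.22, -0.87 and -0.70 on DSS arrays and -0.84, 1.00 and 0.57 on control arrays. Control replicate 1 lay within the DSS range and among the AOM/DSS values, so control overlapped both groups, and the lowest DSS value lay above every AOM value. Spots of the probe differed within an array by an SD of 0.036 to 0.120 log2 units, against an SD between arrays of 0.617 in AOM/DSS, 0.149 in AOM, 0.335 in DSS and 0.964 in control; spots of an array share its RNA. Cftr was lower than control in AOM/DSS (log2 difference -1.32 ± 0.45, adjusted p = 0.043) and in AOM (-1.62 ± 0.45, adjusted p = 0.023), but AOM/DSS did not pass against AOM (0.30, adjusted p = 0.61) or DSS (-0.48, adjusted p = 0.42). The AOM/DSS call against control held without AOM/DSS replicate 1, DSS replicate 1 or control replicate 1 and was lost without any other array (adjusted p = 0.053 to 0.15). The AOM call was lost without AOM replicate 2 or 3 or control replicate 2 or 3 (0.051 to 0.082). The 2 Cftr probes disagreed in part. The dimmer probe was not well above background on AOM/DSS replicate 3 or AOM replicate 3, so its differences are approximate. It was lower than control in AOM/DSS (log2 difference -2.37, adjusted p = 0.0025) and in AOM (-1.69, adjusted p = 0.019). Unlike the brighter probe, it was lower in AOM/DSS than in DSS (-1.43, adjusted p = 0.03). Its log2 difference of AOM/DSS from AOM was -0.69 (adjusted p = 0.23). Over the 12 arrays the 2 probes had a Pearson r of 0.87.

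Slc12a2 encodes NKCC1, the basolateral cotransporter that loads sodium, potassium and chloride for secretion. Its scaled log2 signals were 2.55, 2.28 and 2.36 on AOM/DSS arrays, against 0.62, 2.22 and 2.08 on AOM arrays, 1.66, 0.95 and 0.49 on DSS arrays and 1.13, 2.02 and 2.39 on control arrays. The AOM/DSS values were tight and above every DSS and AOM value, and overlapped control through its replicate 3. Slc12a2 rose in AOM/DSS against DSS (log2 difference 1.37 ± 0.47, 2.58-fold, adjusted p = 0.043), where 17.6% of genes were called higher; this call was lost without any 1 of the AOM/DSS arrays, DSS replicate 2 or 3, or control replicate 2 (adjusted p = 0.054 to 0.15). It did not pass against control (0.55 ± 0.47, adjusted p = 0.39) or AOM (0.76 ± 0.47, adjusted p = 0.22), and was the one member that did not pass the F test (adjusted p = 0.12).

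Among comparisons between treated groups, AOM/DSS against AOM had 4 members lower (Slc26a3, Slc26a2, Slc9a2 and Scnn1a), where 17.7% of genes were called lower, and 6 members lay wholly below AOM, where 30.2% of genes did. AOM/DSS against DSS had 5 lower (those 4 and Scnn1g) and 1 higher, where 18.3% were called lower, and 6 members lay wholly below DSS, where 25.7% did. DSS against AOM had none called, where 0.0105% of genes were called at all. There Slc26a3, Slc26a2 and Cftr had DSS values above every AOM value, an ordering found for 7.81% of all genes tested; their log2 differences were 1.14, 0.72 and 0.78, with adjusted p-values of 0.57, 0.31 and 0.43. The comparisons with control share the control arrays, so their calls are not independent of one another.

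**Figure D2:**
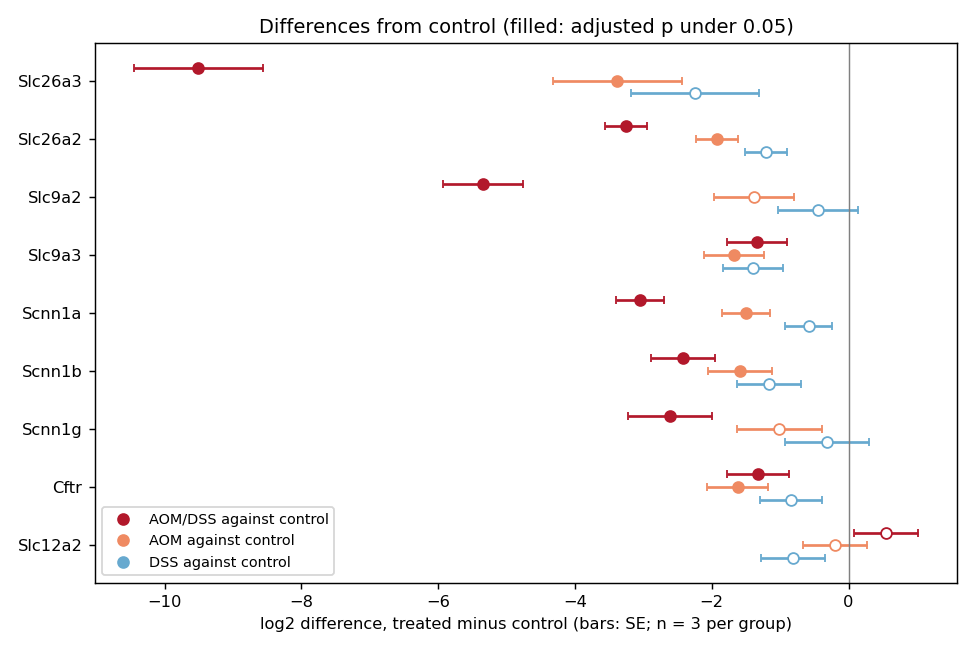
Log2 difference from control (horizontal axis, log2 units, points with SE bars from limma) of each member in AOM/DSS, AOM and DSS, with filled points where adjusted p was under 0.05. The AOM/DSS points of 8 members are filled and negative, from -9.51 for Slc26a3 to -1.32 for Cftr, and no DSS point is filled.

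The slide layout touches the comparisons with control. AOM/DSS replicate 3 is the sole treated array on the control slide, and its log2 difference from the 3 controls was -3.66 for Slc26a2, -1.50 for Slc9a3, -3.33 for Scnn1a, -2.64 for Scnn1b, -3.74 for Scnn1g and -1.89 for Cftr, each below the value of the whole comparison, and 0.52 for Slc12a2. Its Slc26a3 and Slc9a2 values were not well above background, and with the array at its floor the log2 differences were -10.27 and -4.50, against -8.83 and -4.61 at the floors in the whole comparison. Within slide 1, the 2 AOM/DSS arrays against the 2 AOM arrays gave -4.69 for Slc26a3, -1.15 for Slc26a2, -3.49 for Slc9a2 and -1.45 for Scnn1a. AOM against control and DSS against control have no shared slide, so slide and treatment are joined there only through other groups. With slide as a fixed block, 5 members fell in AOM/DSS against control, and the calls of Scnn1b (adjusted p = 0.05), Cftr (0.096) and Slc9a3 (0.18) were lost. In AOM/DSS against AOM this block lost the calls of Slc26a2 (0.065) and Scnn1a (0.059). Against DSS it lost those of Slc26a2 (0.1), Scnn1a (0.093), Scnn1g (0.23) and Slc12a2 (0.21). Of the 6 called in AOM against control, Slc26a3 alone was called under the block (log2 difference -7.61, adjusted p = 0.034). That value rests on AOM/DSS replicate 3, which joins the slides and was not well above background for this gene; with the array at its floor it was -5.57, for which no test was run.

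Over the 12 arrays, 6 members (Slc26a3, Slc26a2, Slc9a2, Scnn1a, Scnn1b and Scnn1g) ran together: their 15 pairwise Pearson r lay between 0.81 and 0.97. Slc9a3 had r of 0.36 to 0.63 with those 6, Cftr 0.36 to 0.67 and Slc12a2 -0.69 to -0.40. These are descriptions over arrays that share groups, slides and scaling. The grouping of the 6 rests on these same r values, and the split from the other members was not tested. The genes with a symbol most like each member over the 12 arrays, outside the set, were Sycn (a zymogen granule protein gene), Casp14 and Fam183b for Slc26a3 (r 0.98 to 0.99), Cyp2c40, Gpt and Abcb1a for Slc26a2 (r 0.98), Pgap4, Cyp2s1 and Itih5 for Slc9a2 (r 0.99), and Plekhg6, Ckmt1 and Hectd3 for Scnn1a (r 0.98 to 0.99). For Scnn1b they were Pip5k1b, Azin1 and Tcf7l2 (r 0.98 to 0.99), for Scnn1g Mlxip, Camta2 and Prkcd (r 0.97 to 0.98), for Slc9a3 Igf2bp2, Spin4 and Vamp2 (r 0.88 to 0.92), for Cftr Fap, Fastkd1 and Acvr1c (r 0.89 to 0.93) and for Slc12a2 Fam122b, Tmtc4 and Anapc4 (r 0.92 to 0.94).

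Beyond the members, 40 of 43 listed genes of the same transport pathway were tested, in 6 lists. In AOM/DSS against control 25 were lower, 4 higher and 11 not called, where 17.5% of all genes were lower and 17.2% higher, with a median log2 difference of -1.22 against 0.03 over all genes. In AOM against control 14 were lower, 3 higher and 23 not called, where 17.6% of all genes were lower and 14.8% higher, with a median of -0.49 against -0.01. In DSS against control none of the 40 was called, where 0.327% of all genes were, with a median of -0.29 against -0.02.

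Regulators of the sodium channel fell in 8 of 9 cases in AOM/DSS against control, with a median log2 difference of -1.60, where 17.5% of all genes fell. Hsd11b2, the enzyme that keeps glucocorticoids off the mineralocorticoid receptor, had scaled log2 signals of -2.83, -4.08 and -4.59 on AOM/DSS arrays, against 0.70, 0.07 and 0.40 on control arrays. No AOM/DSS array came near the control range (log2 difference -4.23 ± 0.43, adjusted p = 9.2e-05). The mineralocorticoid receptor Nr3c2 fell too (-3.44 ± 0.60, adjusted p = 0.0018), as did the deubiquitinase Usp2 (-3.05) and the kinase Sgk1 (-1.76), which keeps the channel at the membrane. In AOM against control 4 of the 9 fell, where 17.6% of all genes did: Nr3c2 (-2.14), Usp2 (-1.79), Nr3c1 (-1.08) and Nedd4l (-0.93).

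Of the 7 sodium-proton exchangers and scaffolds, 4 were lower and 1 higher in AOM/DSS against control, where 17.5% of all genes were lower and 17.2% higher, with the NHE3 scaffolds Slc9a3r1 (NHERF1, log2 difference -2.70) and Pdzd3 (-2.13) lowest, then the membrane linker Ezr (-1.18). Pdzk1, which was called higher (2.13-fold as measured, adjusted p = 0.046), was not well above background on any control array. With the control arrays at their floors the rise was 1.25-fold, for which no test was run. Of the 7 genes of the basolateral pump and bicarbonate cotransport 4 fell and 1 rose, against the same shares; the pump's beta subunit Atp1b1 had a log2 difference of -1.30, and the bicarbonate cotransporters Slc4a7 and Slc4a4 had log2 differences of -1.68 and -1.47. Of 4 tested genes of potassium channels and the colonic proton-potassium pump, 2 fell, against the same shares. They were Atp12a, the pump (-2.52), and Kcne3, a subunit of the basolateral potassium channel (-1.34). Kcnn4, a basolateral calcium-activated potassium channel, was higher in AOM than in control (0.93) and lower in AOM/DSS than in AOM (-1.35).

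Of 5 anion exchangers and chloride channels, 3 fell in AOM/DSS against control and 1 rose, where 17.5% of all genes fell and 17.2% rose. Clcn2, a chloride channel (-2.41), Ano1, a calcium-activated chloride channel (-2.25), and Slc4a2, a basolateral anion exchanger (-1.24), fell. Slc26a9, a chloride channel of the same family as Slc26a3, had scaled log2 signals of -0.30, -1.13 and -1.29 on AOM/DSS arrays, against -6.42, -2.93 and -2.44 on AOM arrays, -6.15, -6.08 and -5.68 on DSS arrays and -5.52, -5.79 and -5.93 on control arrays. All 3 AOM/DSS arrays were high, and no DSS or control array was well above background. As measured, the rise was 28.6-fold over control (adjusted p = 0.0015) and 33.4-fold over DSS (adjusted p = 0.0019). With the dim arrays at their floors it was 8.14-fold over control and 9.07-fold over DSS, for which no test was run. Slc26a9 and Slc26a3 thus had log2 differences of opposite sign from control in the same neoplasms.

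Among 8 tested secretion regulators, 4 fell and 1 rose in AOM/DSS against control, where 17.5% of all genes fell and 17.2% rose. Guca2a, the gene of the hormone guanylin, fell by 4.21 log2 units and its receptor Gucy2c by 1.42. Prkg2, a cyclic-GMP-dependent kinase that acts on Cftr and NHE3, had scaled log2 signals of 2.03, 2.93 and 2.05 on AOM/DSS arrays, against -2.69, 0.22 and 0.68 on AOM arrays, -4.07, -2.53 and -3.34 on DSS arrays and -5.74, -3.41 and -4.25 on control arrays. The groups AOM/DSS and AOM did not overlap, and both lay above control. Just 1 of 3 control arrays was well above background; with the dim ones at their floors the log2 differences were 6.09 in AOM/DSS (6.80 as measured, adjusted p = 0.00029) and 3.16 in AOM (3.87 as measured, adjusted p = 0.012).

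**Figure D3:**
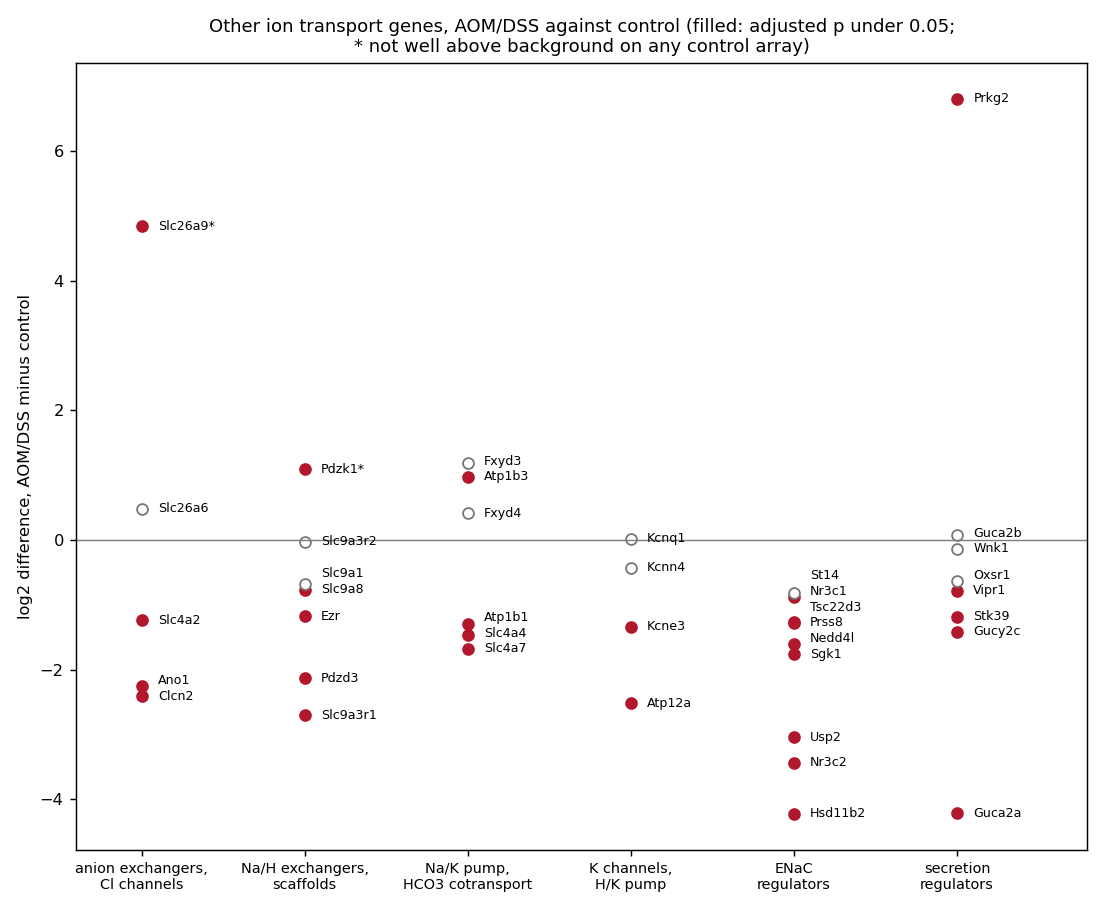
Log2 difference of AOM/DSS from control (vertical axis, log2 units) of tested pathway genes in 6 lists (horizontal axis), 1 point per gene, filled where adjusted p was under 0.05 and starred where no control array was well above background. The 9 sodium channel (ENaC) regulators lie below 0, down to -4.23 for Hsd11b2, and Prkg2 stands at 6.80, or 6.09 with the 2 dim control arrays at their floors.

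Markers of several cell types were called against control in AOM/DSS and in AOM, some lower and some higher. Of all genes, 17.5% were called lower and 17.2% higher in AOM/DSS, and 17.6% lower and 14.8% higher in AOM. The absorptive colonocyte list, 7 of 9 lower in AOM/DSS against control, had a summed signal of 300 to 331 times the 75th percentile on AOM/DSS arrays, 656 to 1100 on AOM arrays, 865 to 1354 on DSS arrays and 913 to 1754 on control arrays. Sums follow the brightest genes, here Lypd8, with scaled log2 signals of 7.94, 8.09 and 7.93 on AOM/DSS arrays. The list's median log2 difference of AOM/DSS from control was -2.65. The 10 pan-epithelial markers, with 8 lower, summed to 849 to 986 on AOM/DSS arrays, 1860 to 2299 on AOM arrays, 1701 to 2968 on DSS arrays and 1542 to 2738 on control arrays. Crypt progenitor and cycling markers, 8 of 9 higher, summed to 35.1 to 37.9 on AOM/DSS arrays against 8.24 to 14.8 on control arrays, and all 5 neutrophil markers were higher, summing to 63.3 to 205 against 0.37 to 0.80. Goblet markers were lower for 8 of 8 and B and plasma cell markers for 3 of 6, and fibroblast markers were higher for 5 of 8, endothelial for 4 of 7 and macrophage for 4 of 6. In AOM against control, markers were higher for 5 of 5 of neutrophil, 5 of 8 of fibroblast, 5 of 7 of endothelial, 5 of 6 of macrophage and 4 of 9 of crypt. Smooth muscle had 1 of 7 higher and the absorptive colonocyte list had 1 higher and 1 lower of 9, near the shares of all genes. The pan-epithelial and goblet lists had none called. Against control, T cell markers had none called in either group. The fibroblast sums were 25.5, 13.5 and 164 on control replicates 1, 2 and 3. They were 130 to 187 on AOM arrays and 166 to 212 on AOM/DSS arrays. Endothelial sums were 0.71, 0.67 and 3.82 on those controls, 4.40 to 7.63 on AOM arrays and 3.87 to 4.83 on AOM/DSS arrays. Control replicate 3 thus lay near the treated arrays in these lists. Macrophage control sums, 10.4 to 19.7, lay below those of AOM (35.7 to 51.7) and AOM/DSS (29.7 to 45.9). Signals are floored above 0, so no marker reads 0. The part of these cell types in the transporter differences was not tested. Pancreatic markers were lower than control for 7 of 9 in AOM/DSS and 4 of 9 in AOM. Without control replicate 3 and DSS replicate 1, the arrays highest in them, an alternative chosen after the data were seen, Slc26a3 differed from control by -9.52 in AOM/DSS (log2, adjusted p = 0.00049), Cftr was not called (-1.15, adjusted p = 0.1), and in DSS against control Slc9a3 (-1.78, adjusted p = 0.014) and Scnn1b (-1.78, adjusted p = 0.028) were called lower.

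Scaled instead to the 10 pan-epithelial markers, an alternative chosen after the data were seen, 6 members fell in AOM/DSS against control, where 4.62% of all genes were called lower and 57.9% higher and the all-gene median was 1.16. The members called were Slc26a3 (log2 difference -8.37), Slc9a2 (-4.21), Slc26a2 (-2.12), Scnn1a (-1.91), Scnn1g (-1.48) and Scnn1b (-1.29), while Slc9a3 (-0.20, adjusted p = 0.67) and Cftr (-0.18, adjusted p = 0.79) were not called. Slc12a2 had a log2 difference of 1.69 on that scale (adjusted p = 0.039), a call shared with 57.9% of genes and near the shift of all genes. AOM/DSS against AOM on this scale had Slc26a3 (-5.22) and Slc9a2 (-3.06) lower, where 2.66% of all genes were lower, 44.9% higher and the all-gene median was 0.86; Slc9a3 had 1.25 (adjusted p = 0.029), with Slc26a2 (-0.43, adjusted p = 0.34) and Scnn1a (-0.65, adjusted p = 0.076) not called.

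**Figure D4:**
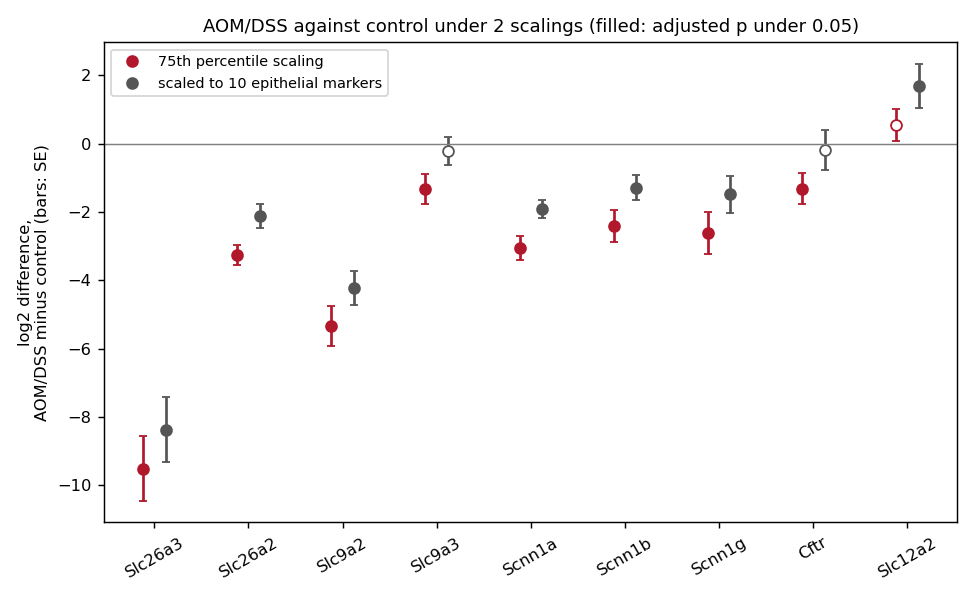
Log2 difference of AOM/DSS from control (vertical axis, log2 units) of each member (horizontal axis), scaled to the array's 75th percentile and to the pan-epithelial markers, with SE bars and filled points where adjusted p was under 0.05. On the pan-epithelial scale Slc26a3 lies at -8.37, Slc9a3 at -0.20, Cftr at -0.18 and Slc12a2 at 1.69.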

How the data were processed

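Per the file headers, the deposited scanner files give a processed signal intensity that is corrected for background and spatial trend but not scaled across arrays; the software was Feature Extraction 10.7.3.1 (10.7 in the submitters' processing notes). The deposited matrix of log2 values, quantile-like across arrays, was used as an alternative (lowest r with the scanner values 0.995). The labels' protocols give miRNeasy extraction and Cy3 labelling.

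Intensity was taken to log2 less each array's 75th percentile. A probe was kept when some group had it well above background on each of its 3 arrays, the brightest standing for its gene. This gave 18961 genes, of which 13517 had a symbol. The rest were accessions without a symbol, each counted as a gene. Symbols came from RefSeq accessions (GRCm38.p6 table; 27198 probes of 41174 named); the scanner headers name another build, so no gene coordinates are printed except the promoter windows' own. Group means were fitted with limma 3.58.1 in R 4.3.3 (8 residual degrees of freedom), adjusted by Benjamini-Hochberg over all genes and called under 0.05. SE values are limma's. The fits were tested on simulated data with known changes. Alternatives were background, scaling, filters, probes, the deposited matrix, slide, replicate block and each array left out.

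The members and lists were chosen with earlier results of these data known. Named genes were all members, up to 4 called genes with the largest log2 difference per pathway list and comparison, and the 3 most correlated genes per member. The number of arrays limits the precision. A listed gene that the named-gene rule picked is counted in its list but not reported here.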

Additional observations from a re-analysis of the deposited data

How the results depend on the processing

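Of 1332 repeats of the member comparisons over 25 alternatives, 1234 left the call as it was, 73 lost it, 25 gained it and 0 turned the direction of a called difference. Uncalled differences near 0 did change sign, for example Slc12a2 in AOM against control (-0.56 to 0.31), Slc9a3 in AOM/DSS against DSS (-0.82 to 1.20) and Cftr in AOM/DSS against AOM (-0.19 to 1.21); the cause of these moves was not tested except where an alternative itself uses fewer arrays or more probes. Counts follow for all genes called unless members are named. Normexp background correction gave 2743 in AOM/DSS against control (6582 in the analysis reported), 1857 in AOM against control (6145; 3 members lower), 1 in DSS against control (62), 1252 in AOM/DSS against AOM (7042; 2 members lower), 1894 in AOM/DSS against DSS (6804; 0 members higher), 0 in DSS against AOM (2) and 2459 in the F test (9981). Slide as a fixed block gave 2210 (5 members lower), 4 (1 lower), 2, 2830 (2 lower), 438 (2 lower, 0 higher), 1 and 2505 (5 members) in the same order. Slide as a random block gave 2507 in DSS against control (2 members lower, Slc26a2 and Slc9a3) and 68 in DSS against AOM. The correlation within slides that this fit used was negative (-0.16), so these counts do not show what removing a slide effect would give. In DSS against control its SE was smaller than in the analysis reported, 0.23 against 0.30 for Slc26a2 and 0.33 against 0.44 for Slc9a3. Without the filter on dim probes the counts were 13818 in AOM/DSS against control, 39 in DSS against control, 13247 in AOM/DSS against DSS, 0 in DSS against AOM and 16455 in the F test. Requiring all 12 arrays well above background left 5 members called lower in AOM/DSS against control and 5 in the F test, since Slc26a3, Slc9a2 and Slc9a3 were then not tested, the first 2 because of dim AOM/DSS arrays. DSS against control had 118 genes under quantile normalization and 116 in the deposited matrix. DSS against AOM had 0 under those, under the other filters, under the percentile of named probes and under averaged probes. Median scaling left 0 members higher in AOM/DSS against DSS; it moved the all-gene median to -0.12, -0.36 and -0.18 and the share of calls that were higher to 39.1%, 33.7% and 35.2% (49.7%, 52.4% and 49.1% as reported) in AOM/DSS against control, AOM and DSS. Among alternatives chosen after the data were seen, the pan-epithelial scaling gave 11862 (1 member higher), 3723 and 35 for AOM/DSS, AOM and DSS against control, 2 members lower and 1 higher in AOM/DSS against AOM, and 12223 (2 members higher) in AOM/DSS against DSS, with calls higher in 92.6% of AOM/DSS against control. Leaving out both arrays highest in pancreatic markers gave 4279 in DSS against control (2 members lower) and 0 in DSS against AOM. With 1 array left out at a time, genes called ran from 4303 to 7381 in AOM/DSS against control, 1972 to 7302 in AOM against control, 1 to 3191 in DSS against control (3191 without DSS replicate 1, 1334 without control replicate 3), 3371 to 8089 in AOM/DSS against AOM, 3315 to 8867 in AOM/DSS against DSS, 0 to 320 in DSS against AOM and 5939 to 11629 in the F test. Members lower ran from 6 to 8 in AOM/DSS, 1 to 7 in AOM and 0 to 1 in DSS, each against control, from 4 to 5 in AOM/DSS against AOM and 4 to 6 against DSS; members higher ran from 0 to 1 in AOM/DSS against DSS, and 5 to 8 members passed the F test. The replicate numbers were not taken to pair the samples, and these values do not settle whether they do. Of 18 same-number pairs, 9 deviated together at a correlation over 0.1 (range -0.27 to 0.24), and different-number pairs reached 0.38. Just 4 of 12 arrays correlated best with their own number. The replicate block gave 40 genes in DSS against control, 0 in DSS against AOM and 0 members higher in AOM/DSS against DSS.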
